A study of Homo sapiens with 2 samples.

Results

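Genes that bring iron into the cell, store it, release it and sense it were followed in RKO, a line grown from a human colorectal carcinoma, with hnRNPU knocked down by an siRNA or with a control siRNA. The 10 genes were TFRC, STEAP3 and SLC11A2 (uptake), FTH1, FTL and NCOA4 (storage), SLC40A1 (export), and ACO1, IREB2 and FBXL5 (sensing). They were found by gene symbol, and all 10 were among the 40205 genes listed. Each group held 1 library, hnRNPU siRNA or control siRNA, both of total RNA from the same line, and the labels give neither the siRNA sequences nor the time after transfection. Values are FPKM, fragments per kilobase of gene scaled to library depth, and the steps between low values gave 39807025 reads behind the hnRNPU siRNA library and 31801650 behind the control siRNA library. HNRNPU, which encodes a nuclear RNA- and DNA-binding protein, stood at 75.4 FPKM with the hnRNPU siRNA and 239 FPKM with the control siRNA, or 31.5% of the control level. With 1 library per group no test across conditions was possible, so "higher" and "lower" describe these 2 libraries only.

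Cells take up iron mainly as transferrin bound to the transferrin receptor, reduce it in the endosome and pass it through a membrane transporter into the cytosol. Iron that is not used is held in ferritin, a hollow shell of heavy and light chains, and is recovered when ferritin is carried to the lysosome. When iron is scarce, the iron regulatory proteins bind RNA hairpins called iron-responsive elements. Bound hairpins in the 3' untranslated region (UTR) of the transferrin receptor mRNA protect it from decay, and a bound hairpin in the 5' UTR of ferritin mRNAs blocks their translation. Transferrin receptor mRNA is therefore known to vary with iron, while ferritin is known to be set largely at translation, which RNA levels do not show.

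The hairpins themselves are shown because TFRC, FTH1, FTL and SLC40A1 held a match to their pattern and most mRNAs did not. The pattern searched was a C, then 5 bases, then CAGTGN with N not G, then 5 bases that pair with the first 5, allowing G with T, on the sense strand of GENCODE 29 transcripts. The 6-base loop is in capitals in the 29-base windows below, written 5′ to 3′ as DNA. The 4 matches in TFRC, on chromosome 3, began at bases 941, 1345, 1410 and 1457 of the 3' UTR, and the matches in FTH1 on chromosome 11, FTL on chromosome 19 and SLC40A1 on chromosome 2 lay in the 5' UTR. The SLC40A1 match was in 1 of 5 coding transcripts. The matches were in 7 of 8 for FTH1, 1 of 1 for FTL and 3 of 4 for TFRC.
TFRC IRE 1: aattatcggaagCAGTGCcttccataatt
TFRC IRE 2: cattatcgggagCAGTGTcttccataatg
TFRC IRE 3: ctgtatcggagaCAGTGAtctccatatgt
TFRC IRE 4: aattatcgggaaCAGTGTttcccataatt
FTH1 IRE 1: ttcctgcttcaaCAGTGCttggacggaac
FTL IRE 1: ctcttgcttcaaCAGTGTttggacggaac
SLC40A1 IRE 1: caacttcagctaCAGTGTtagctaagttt

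The FTH1 and FTL windows were identical at 26 of 29 bases. Of 19669 protein-coding genes, 26 (0.132%) held the pattern in an annotated 5' UTR and 104 (0.529%) in a 3' UTR. The other 6 of the 10 genes, SLC11A2 among them, held no match to these letters in a UTR. The pattern is strict, so an element that departs from it would be missed, and no match does not mean no element. A match is a description of sequence and says nothing of binding in these cells.

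The transferrin receptor and the sensor ACO1 were higher with the hnRNPU siRNA, while the second sensor IREB2, the endosomal reductase STEAP3 and both ferritin chains were lower. TFRC had the largest ratio of the 9 genes listed above 0, 1.68-fold. No gene of the group reached a 2-fold difference. Ratios below are log2 of (FPKM + 1) with the hnRNPU siRNA over (FPKM + 1) with the control siRNA, a scale that understates differences of low genes. Counting intervals are exact 95% intervals of the FPKM ratio from approximate reads, reckoned as described under the processing. They cover counting error only, not the variation between cultures. In bulk RNA, fewer cells with a transcript and less of it per cell cannot be told apart.

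**Figure D1:**
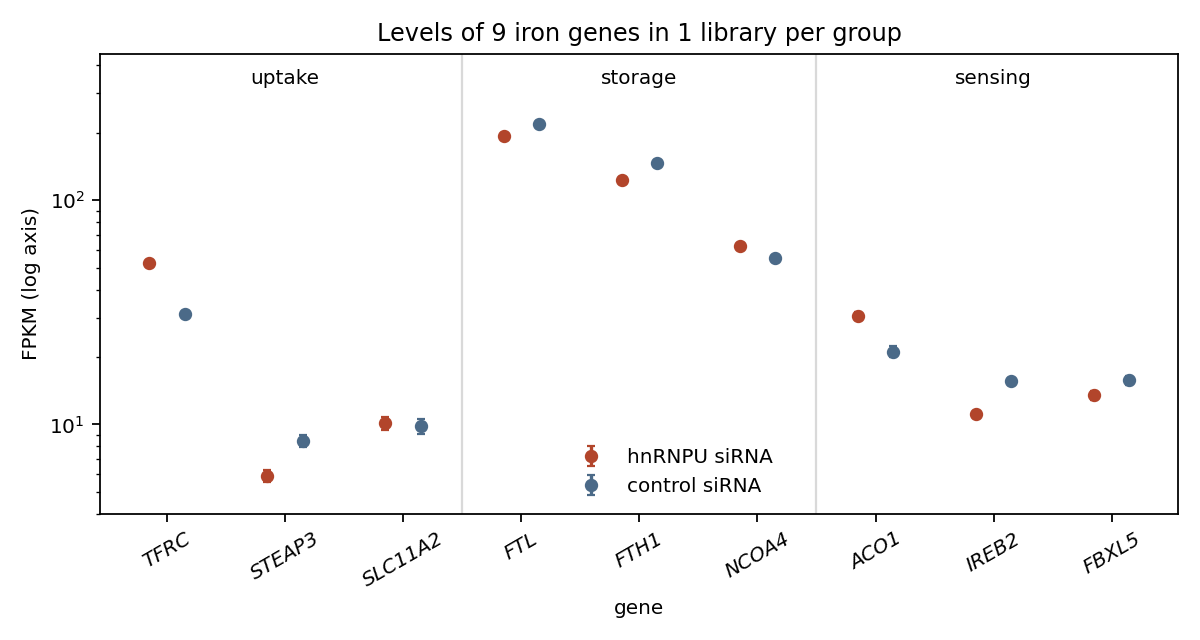
FPKM (log axis) of the 9 iron genes listed above 0, by role, in the hnRNPU siRNA library (red, left point of each pair) and the control siRNA library (blue, right point), with bars for the exact 95% counting interval of each level, often smaller than the point. TFRC stood at 52.3 FPKM with the hnRNPU siRNA against 31.2 FPKM with the control siRNA, and the intervals of SLC11A2 overlapped.

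TFRC, the receptor for transferrin-bound iron (chromosome 3, positions 195776155 to 195808961 of GRCh37, minus strand), stood at 52.3 FPKM with the hnRNPU siRNA and 31.2 FPKM with the control siRNA. At 5111 bases, its longest GENCODE transcript, these levels came to 10643 reads with the hnRNPU siRNA and 5073 with the control siRNA. The recovered length was 5224 bases. The counting intervals of the 2 levels did not overlap. The log2 ratio was 0.73, and the FPKM ratio of 1.68 had a counting interval of 1.62 to 1.73. Of the 7958 genes that reached 5 FPKM in either library, 124 (1.56%) had a ratio at least as high. TFRC ranked 1217 by FPKM in the hnRNPU siRNA library and 1998 in the control siRNA library.

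STEAP3, the reductase that converts ferric to ferrous iron in the endosome (chromosome 2, positions 119981384 to 120023228, plus strand), went the other way from TFRC. It stood at 5.89 FPKM with the hnRNPU siRNA and 8.43 FPKM with the control siRNA, a log2 ratio of -0.45 with a counting interval of 0.641 to 0.761 on the FPKM ratio. It was the lowest of the uptake genes in both libraries. SLC11A2, the divalent metal transporter that moves ferrous iron into the cytosol (chromosome 12, positions 51379775 to 51420183, minus strand), was nearly level. Its values were 10.1 FPKM with the hnRNPU siRNA and 9.82 FPKM with the control siRNA, and the counting interval of the ratio, 0.934 to 1.14, included 1. It was the only measured gene of the 10 whose interval included 1. The 3 uptake genes therefore differed in direction: 1 higher, 1 lower and 1 not distinguishable at this depth.

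Both ferritin chains were lower by small amounts. FTH1, the heavy chain that oxidises iron as it enters the shell (chromosome 11, positions 61732036 to 61735077, minus strand), stood at 124 FPKM with the hnRNPU siRNA and 147 FPKM with the control siRNA. Its log2 ratio was -0.25, with a counting interval of 0.811 to 0.872 on the FPKM ratio. FTL, the light chain that helps form the mineral core (chromosome 19, positions 49468566 to 49470136, plus strand), stood at 195 FPKM with the hnRNPU siRNA and 220 FPKM with the control siRNA, a log2 ratio of -0.17 with an interval of 0.856 to 0.917. Both genes lay well inside the spread of all genes, since 18.7% of the 7958 genes had a ratio at least as low as FTH1 and 25.3% one at least as low as FTL. The 2 chains kept nearly the same proportion, with 1.58 FTL per FTH1 in FPKM with the hnRNPU siRNA and 1.50 with the control siRNA.

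Ferritin genes have many processed pseudogenes, copies of the mRNA in the genome that can draw reads from the gene. The file listed 24 FTH1 pseudogenes, of which 11 were above 0, with a summed 5.85 FPKM in the hnRNPU siRNA library (4.74% of FTH1) and 6.75 FPKM in the control siRNA library (4.60% of FTH1). The highest value in either library was that of FTH1P8, which stood at 1.66 FPKM with the hnRNPU siRNA and 2.34 FPKM with the control siRNA. In the hnRNPU siRNA library FTH1P16 stood at 1.68 FPKM, FTH1P10 at 0.693, FTH1P23 at 0.613 and FTH1P2 at 0.164. In the control siRNA library FTH1P16 stood at 1.70 FPKM, FTH1P10 at 0.499, FTH1P23 at 0.625 and FTH1P2 at 0.535. Of 19 FTL pseudogenes 2 were above 0, with FTLP3 at 1.02 FPKM with the hnRNPU siRNA and 1.79 FPKM with the control siRNA. The FTH1 values were those of fractional reads, so the FTH1 level is less certain. Its recovered length was 14748 bases, and its longest GENCODE transcript has 1229. The length recovered for FTL was 2.02 times its longest GENCODE transcript, so its values may rest on fractional reads too. The FTL level and the FTL per FTH1 proportion carry the same limit. Such lengths were not particular to ferritin: TXNRD1 had 12846 bases against 4277 and ACSL4 10670 against 5333, while TFRC stood at 1.02 times its longest transcript. Whether reads of FTH1 or FTL were split over pseudogene copies was not tested. With the pseudogene values added, the log2 ratios of FTH1 and FTL were -0.25 and -0.18.

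NCOA4, the cargo receptor that delivers ferritin to the lysosome, was slightly higher. It stood at 62.6 FPKM with the hnRNPU siRNA and 55.3 FPKM with the control siRNA, a log2 ratio of 0.18 with a counting interval of 1.10 to 1.17. The file places NCOA4 on a scaffold outside the chromosomes, and no position is given here. SLC40A1, which encodes ferroportin, the iron exporter (chromosome 2, positions 190425316 to 190445537, minus strand), was listed at 0 in both libraries. For its longest GENCODE transcript of 3442 bases, a count of 0 allows up to 0.0219 FPKM with the hnRNPU siRNA and 0.0274 FPKM with the control siRNA (3 reads). None of 12 housekeeping genes was listed at 0.

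The 2 iron regulatory proteins stood in opposite directions. ACO1, a cytosolic aconitase that becomes an RNA-binding sensor when it loses its iron-sulfur cluster (chromosome 9, positions 32403851 to 32450834, plus strand), stood at 30.4 FPKM with the hnRNPU siRNA and 21.1 FPKM with the control siRNA. Its log2 ratio was 0.51, with a counting interval of 1.34 to 1.55 on the FPKM ratio, and 5.87% of the 7958 genes had a ratio at least as high. IREB2, the paralogue that is degraded when iron is plentiful (chromosome 15, positions 78730518 to 78793798, plus strand), stood at 11.1 FPKM with the hnRNPU siRNA and 15.6 FPKM with the control siRNA. Its log2 ratio was -0.45, with an interval of 0.678 to 0.751, and 7.63% of genes had a ratio at least as low. The counting intervals of the 2 ratios lay on opposite sides of 1.

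FBXL5, the iron-binding F-box protein that directs IREB2 protein to degradation (chromosome 4, positions 15606629 to 15661487, minus strand), stood at 13.5 FPKM with the hnRNPU siRNA and 15.7 FPKM with the control siRNA. The log2 ratio was -0.21, with a counting interval of 0.802 to 0.916. Like the ferritin chains, it was lower by an amount that 22.0% of genes matched or passed. In the control siRNA library the levels of FBXL5 and IREB2 could not be told apart by counting, at intervals of 14.99 to 16.5 and 15.01 to 16.1 FPKM. In the hnRNPU siRNA library IREB2, at 10.7 to 11.5 FPKM, lay below FBXL5, at 12.9 to 14.1 FPKM, and overlapped SLC11A2, at 9.49 to 10.8 FPKM.

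Apart from these neighbours, the order of the levels was the same in both libraries. FTL and FTH1 were the most abundant, followed by NCOA4, TFRC, ACO1, FBXL5, IREB2, SLC11A2 and STEAP3, with SLC40A1 at 0. FPKM is a level per length of the gene model, so the order depends on the models the authors used, which are not known. The length recovered from the ACO1 values was 0.243 of its longest GENCODE transcript. A recovered length is the smallest that gives whole reads and can be a fraction of the model, so it does not show a short model.

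Ratios of 2 genes within 1 library do not depend on how the libraries are scaled to each other. These pairs were picked after the values were seen, and each puts a higher gene over a lower gene, which widens the difference. The pairs with FTH1 or FTL carry the limit on ferritin levels given above. TFRC per FTH1 was 0.424 in FPKM with the hnRNPU siRNA and 0.213 with the control siRNA, a 1.99-fold difference, and TFRC per FTL was 0.269 with the hnRNPU siRNA and 0.142 with the control siRNA. ACO1 per IREB2 was 2.74 with the hnRNPU siRNA and 1.36 with the control siRNA, a 2.02-fold difference. The summed FPKM of ACO1 and IREB2 was closer, at 41.5 with the hnRNPU siRNA and 36.7 with the control siRNA, and ACO1 made up 73.3% of it with the hnRNPU siRNA and 57.6% with the control siRNA.

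**Figure D2:**
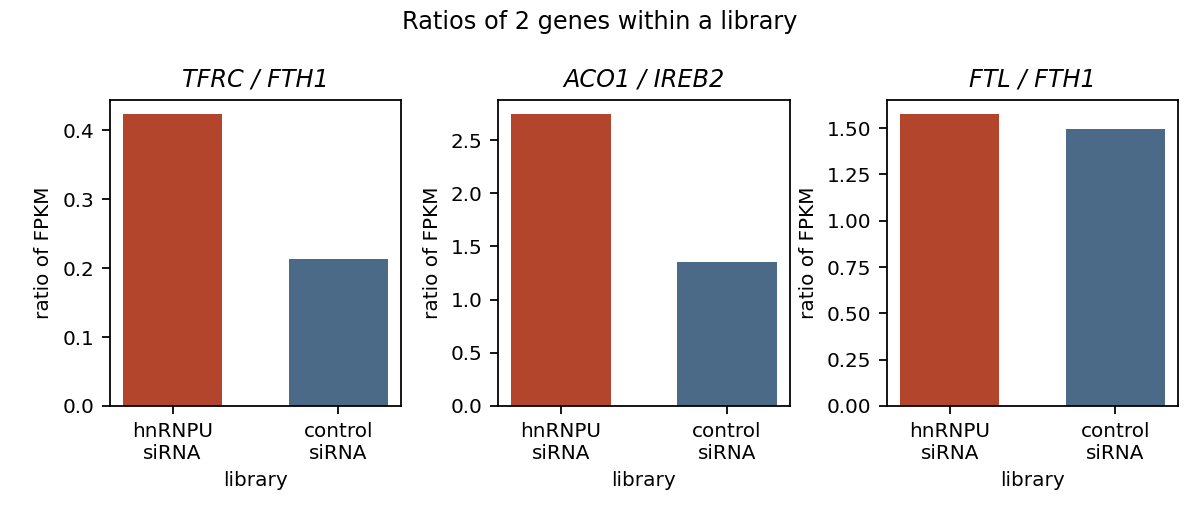
Ratio of the FPKM of 2 genes within the hnRNPU siRNA library (red, left bar) and the control siRNA library (blue, right bar), 1 library each and no error bars. With the hnRNPU siRNA against the control siRNA, TFRC per FTH1 was 0.424 against 0.213. In the same order, ACO1 per IREB2 was 2.74 against 1.36 and FTL per FTH1 1.58 against 1.50. The FTH1 and FTL levels are less certain, as the text describes.

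As a group, 9 of the 10 genes had a mean of at least 1 FPKM, 4 with a ratio above 0 and 5 below. Their median log2 ratio was -0.17, and that of all 11567 genes with such a mean was 0.00. By a rule of a log2 ratio of at least 0.5 in genes that reached 5 FPKM in either library, 2 of 9 genes (TFRC and ACO1) were higher, against 6.13% of the 7958 genes. By the mirror rule, 0 of 9 were lower, against 6.2% of genes. STEAP3 and IREB2, both at -0.45, fell short of that limit, and ACO1, at 0.51, barely passed it. Rescaling the libraries by the median ratio put ACO1 at 0.47, under the limit, and left TFRC at 0.69. At the 2-fold rule the background was 0.314% higher and 0.754% lower, and none of the 9 genes passed.

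**Figure D3:**
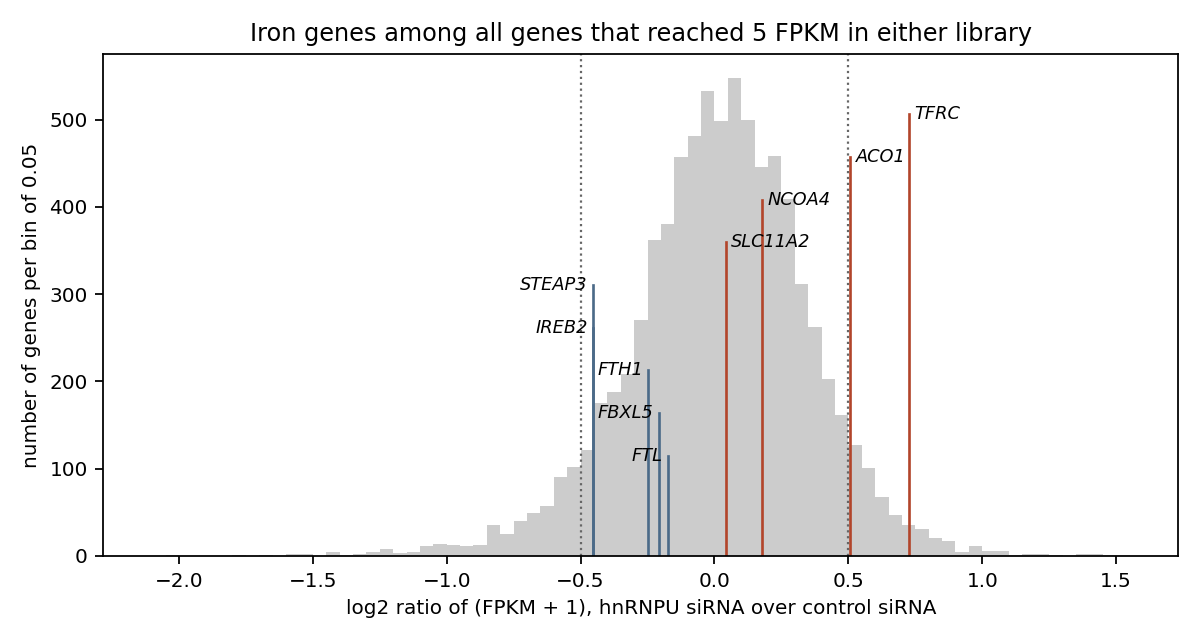
Distribution of the log2 ratio of (FPKM + 1), hnRNPU siRNA over control siRNA, over the 7958 genes that reached 5 FPKM in either library (grey, genes per bin of 0.05), with the 9 iron genes as lines (red above 0, blue below). Line heights only separate the labels, and the dotted lines stand at -0.5 and 0.5, with TFRC (0.73) and ACO1 (0.51) to the right of the upper one.

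The wider iron pathway was described with lists of further genes. In transport and storage, 12 of 25 genes had a mean of at least 1 FPKM, 3 with a ratio above 0 and 9 below, with a median of -0.03. By the 0.5 rule, which 6.13% of all genes passed as higher and 6.2% as lower, 0 of 7 were higher and 1 lower. The same shares stand behind the counts of each list below, and 50.0% of all 11567 genes with a mean of at least 1 FPKM lay above 0. The lower gene was PRNP, the prion protein gene, for which a role as a ferrireductase has been reported, at 57.2 FPKM with the hnRNPU siRNA and 96.7 FPKM with the control siRNA (-0.75). HFE, a partner of the transferrin receptors, stood at -0.29. SLC39A14, a zinc and iron importer (0.27), and the iron chaperone PCBP1 (0.19) were the highest. Transferrin (TF), hepcidin (HAMP), the ferroxidase HEPH and the mitochondrial ferritin FTMT were listed at 0 in both libraries, as SLC40A1 was.

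Of the genes that work with NCOA4 or FBXL5 all 10 were measured, 6 above 0 and 4 below, with a median of 0.03 that was -0.01 after rescaling by the median ratio. By the 0.5 rule 0 of 10 were higher and 0 lower, a count too small to set against 6.13% and 6.2% of all genes. CUL1, the cullin scaffold of the SCF ligase to which FBXL5 belongs, was the highest at 110 FPKM with the hnRNPU siRNA and 83.7 FPKM with the control siRNA (0.39), followed by the autophagy gene GABARAPL2 (0.33). HERC2, a ligase that acts on NCOA4 protein, was the lowest (-0.19), followed by the ring-finger subunit RBX1 (-0.13), whose counting interval of 0.772 to 1.08 included 1.

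Haem genes were spread to both sides. Of 20 measured genes 7 had a ratio above 0 and 13 below, with a median of -0.06, and by the 0.5 rule 1 of 14 was higher and 1 lower. HMOX1, the inducible haem oxygenase that releases iron from haem, stood at 16.6 FPKM with the hnRNPU siRNA and 11.1 FPKM with the control siRNA (0.54; counting interval 1.35 to 1.66). ALAS1, the first enzyme of haem synthesis, stood at 42.1 FPKM with the hnRNPU siRNA and 31.3 FPKM with the control siRNA (0.41). UROS and UROD, consecutive enzymes in the middle of the pathway, were the lowest at -0.52 and -0.44. UROS stood at 10.01 FPKM with the hnRNPU siRNA and 14.8 FPKM with the control siRNA.

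Iron-sulfur cluster assembly genes had a median of 0.09, with 18 of 27 measured genes above 0 and 9 below. The median was 0.16 over members averaging 5 FPKM or more and 0.05 at a pseudocount of 5 FPKM. By the 0.5 rule 2 of 21 were higher and 0 lower, beside 6.13% and 6.2% of all genes. NFS1, the cysteine desulfurase that supplies the sulfur, stood at 12.1 FPKM with the hnRNPU siRNA and 6.37 FPKM with the control siRNA, a log2 ratio of 0.83 with a counting interval of 1.71 to 2.10. FDX1, a ferredoxin that donates electrons, stood at 12.3 FPKM with the hnRNPU siRNA and 7.59 FPKM with the control siRNA (0.63; 1.49 to 1.77). ISCU, the scaffold on which the cluster is built, went the other way at -0.33, and CIAO1, a subunit of the cytosolic targeting complex, was the lowest at -0.43. The list thus held a higher desulfurase beside a lower scaffold.

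**Figure D4:**
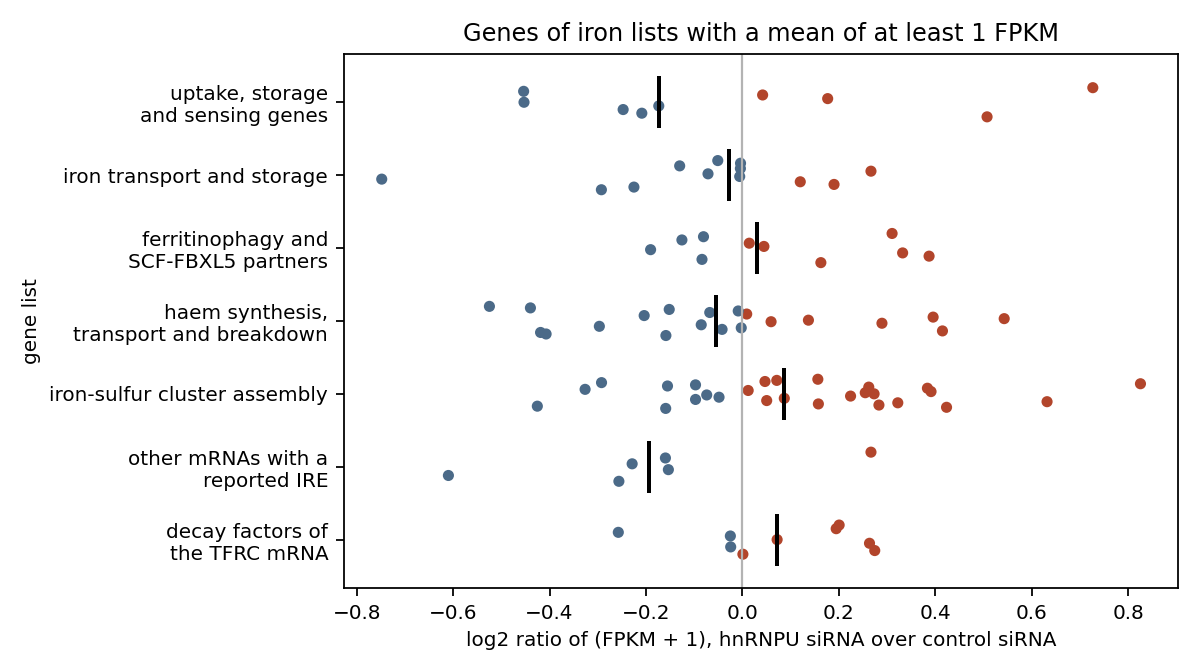
Log2 ratio of (FPKM + 1), hnRNPU siRNA over control siRNA, of each gene with a mean of at least 1 FPKM in the iron lists (points, red above 0 and blue below, spread vertically for legibility), with the median of each list as a black bar. TFRC (0.73) and NFS1 (0.83) are the rightmost points of their lists, and PRNP (-0.75) the leftmost point overall.

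Among other mRNAs for which an iron-responsive element has been reported, 1 of 6 measured genes lay above 0 and 5 below. The median was -0.19, and 0 of 4 passed the 0.5 rule in either direction. CDC14A, a phosphatase, was the lowest at 1.76 FPKM with the hnRNPU siRNA and 3.21 FPKM with the control siRNA (-0.61, with less than 5 FPKM in both). SLC39A14 (0.27) was the highest, followed by the kinase CDC42BPA at -0.15.

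Of 9 factors reported to degrade the TFRC mRNA or to act in general mRNA decay, 6 lay above 0 and 3 below, and the median was 0.07. By the 0.5 rule 0 of 6 were higher and 0 lower, again too few to set against the shares of all genes. The endonuclease ZC3H12A, also called Regnase-1, stood at 1.55 FPKM with the hnRNPU siRNA and 1.22 FPKM with the control siRNA. Its counting interval of 0.995 to 1.65 was taken at its longest GENCODE transcript, 2684 bases. The recovered length, 3233 bases, would give more reads, so whether the interval includes 1 may depend on the length used. The Roquin genes RC3H1 and RC3H2, whose proteins bind stem-loops in 3' UTRs, stood at -0.03 and -0.26. The highest were the deadenylase subunit CNOT7 (0.27) and the exonuclease DIS3L2 (0.26).

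Markers of other iron-handling cells, apart from CD68, were near 0 in both libraries. Of 8 erythroid markers 7 were listed at 0, among them HBB and ALAS2, and the summed level was 0 FPKM with the hnRNPU siRNA and 0.0520 FPKM with the control siRNA. Of 8 hepatocyte markers 6 were at 0, with sums of 0.0340 FPKM with the hnRNPU siRNA and 0.0534 FPKM with the control siRNA. Of 8 macrophage and blood markers, CD68 alone was measured, at 282 FPKM with the hnRNPU siRNA and 212 FPKM with the control siRNA, and no other passed 0.0152 FPKM. Among 8 epithelial and colon markers KRT18, KRT8, EPCAM and CDX2 had a mean of at least 1 FPKM, with KRT18 at 81.6 FPKM with the hnRNPU siRNA and 88.1 FPKM with the control siRNA, while CDH1 and KRT20 were listed at 0.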

How the data were processed

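Total RNA came from Trizol extracts of RKO cells, per the labels' protocols. The authors deposited 1 FPKM value per gene and library. The submitters' processing notes name Bowtie and the build GRCh37. The sources used here do not give the annotation, the counting program or the use of strand. Columns were assigned to groups from the sample labels.

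Depth was read from genes of short noncoding RNAs, as the most frequent value of what 1 read adds; 36.0% and 35.3% of such genes above 0 (hnRNPU siRNA, control siRNA) then held whole reads within 1e-06. Reads of a gene were FPKM times depth times the smaller of the length recovered from its values and its longest GENCODE 29 transcript. Recovered lengths can be off by a whole factor, so intervals are approximate. Where the recovered length was the longer, as for TFRC and ZC3H12A, it would give more reads than those printed. Clopper-Pearson intervals of ratios and exact Poisson intervals of levels were 95%. The pseudocount was 1 FPKM, and no rescaling was applied. Steps were tested on simulated libraries of whole reads only, so fractional reads were not covered. Python 3.11.15, pandas 2.3.3, NumPy 2.4.6 and SciPy 1.17.1 were used.

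The genes and lists were chosen with earlier results of these data known. Named were HNRNPU, the 10 genes, their pseudogenes at 0.5 FPKM or more, the 2 highest and 2 lowest of each list, and ZC3H12A, RC3H1 and RC3H2, except 1 gene that is not reported here; other genes (ALAS2, CD68, TF and the like) were named after their values were seen. Older symbols were matched through RefSeq. Alternatives were other pseudocounts, 3 rescalings and other minimum levels.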

Additional observations from a re-analysis of the deposited data

How the results depend on the processing

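No paired analysis was possible because there was 1 library of each siRNA. Of 150 comparisons with an alternative, 135 stayed within the counting interval, for a list median within the median interval width of its members, or within 1.5 times a count or share. The other 15 did not. TFRC, ACO1 and HNRNPU kept their direction under each pseudocount and rescaling; genes outside the 10 were followed only through their list medians. That tolerance is wide beside medians near 0: the ferritinophagy and FBXL5 partners, at 0.03, stood at -0.01 after rescaling by the median ratio, and the iron-sulfur genes ranged from 0.05 to 0.16. At a pseudocount of 5 FPKM, which shrinks all ratios, TFRC stood at 0.66, IREB2 at -0.35, STEAP3 at -0.30 and HNRNPU at -1.61. Equal FPKM sums put HNRNPU at -1.62 and rescaling by the median ratio at -1.69, shifts that the scaling factors set. The count of iron genes at 0.5 or more, 2, was 1 at a pseudocount of 5 FPKM, 1 after rescaling by the median ratio and 1 by the upper quartile, each time without ACO1. The count at -0.5 or less, 0, was 1 at a pseudocount of 0.1 FPKM, where STEAP3 stood at -0.51. The median of the 10 genes was -0.087 with no minimum level, which admits SLC40A1 at 0. The background shares were 2.85% higher and 2.85% lower at a pseudocount of 5 FPKM, and 1.76% and 2.22% with no minimum level. The alternative with pseudogenes added was chosen after the data were seen. Depth and the length used limited ZC3H12A, on 165 reads with the hnRNPU siRNA and 103 with the control siRNA at 2684 bases. SLC11A2 rested on 893 and 691 reads in those libraries, and its interval included 1 around an FPKM ratio of 1.03.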

Other observations

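Genes that control ferroptosis, an iron-dependent death by lipid peroxidation, and enzymes that use iron were grouped after the values of the 10 iron genes had been seen. Of 13 ferroptosis genes 6 had a ratio above 0 and 7 below, with a median of -0.02, and by the 0.5 rule 0 of 11 were higher and 2 lower, beside 6.13% and 6.2% of all genes. Both lower genes encode parts of the cystine importer: SLC7A11 stood at 5.69 FPKM with the hnRNPU siRNA and 14.6 FPKM with the control siRNA (-1.22), and SLC3A2 at 45.2 FPKM with the hnRNPU siRNA and 66.3 FPKM with the control siRNA (-0.54). GPX4, the peroxidase that repairs lipid peroxides, stood at 76.4 FPKM with the hnRNPU siRNA and 92.9 FPKM with the control siRNA (-0.28). ACSL4, which activates polyunsaturated fatty acids, was the highest at 44.9 FPKM with the hnRNPU siRNA and 33.8 FPKM with the control siRNA (0.40).

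Of 14 measured iron-using oxygenases and ribonucleotide reductase subunits, 8 lay above 0 and 6 below, and the median was 0.16. By the 0.5 rule 0 of 12 passed in either direction, too few to set against the shares of all genes. The highest were DOHH, the deoxyhypusine hydroxylase (0.42), and the oxygen-sensing prolyl hydroxylase EGLN2 (0.33), and the lowest was TET2, a DNA demethylating enzyme (-0.30). Of the 26 genes with the hairpin pattern in a 5' UTR, 17 had a mean of at least 1 FPKM, FTH1 and FTL among them. Of these 7 lay above 0 and 10 below, with a median log2 ratio of -0.13. Of the 104 with it in a 3' UTR, 66 were measured, 32 above 0 and 34 below, and their median was -0.01.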
